A study of Mus musculus with 12 samples.

Results

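The genes described here are 10 genes of the circadian clock, chosen by name: Arntl (also called Bmal1), Clock, Per1, Per2, Per3, Cry1, Cry2, Nr1d1, Nr1d2 and Dbp. All 10 were found in both deposited comparison tables, which held 26240 genes at 4 h and 27020 at 24 h, and all 10 passed the filter on low counts at both times. RNA came from primary cardiac fibroblasts of C57BL/6 mice, grown as cultures with serum and given ethanol vehicle or 6 µM MCB-613-10-1, a compound derived from MCB-613, for 4 h or 24 h. Each of the 4 groups had 3 libraries, and all 12 came from cells of the same strain and tissue with no genetic change named in the labels. The labels do not say whether the 3 libraries of a group came from separate cultures or animals, so p-values measure the spread between these libraries, which may be technical. No label gives the time of day, a synchronizing step or a change of medium.

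The molecular clock is a feedback loop of transcription and translation that runs in nearly every cell, cultured fibroblasts included. ARNTL and CLOCK pair and activate genes that carry E-box sequences, among them the Per, Cry, Nr1d and Dbp genes. PER and CRY proteins gather and repress ARNTL and CLOCK, while the nuclear receptors NR1D1 and NR1D2 (REV-ERB alpha and beta) repress Arntl through a sequence called RORE. DBP is an activator at D-box sequences and carries the rhythm to output genes, and serum, glucocorticoids and cyclic AMP reset the loop mainly through Per1 and Per2.

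The start regions of 5 members are shown because their RNA moved most or carries a D-box, and the letters are those through which loop factors are known to act. Sequences are those of RefSeq on GRCm38.p6, which is not the build of the deposited tables. 9 of the 10 members matched, with 13 annotated starts, and Per2 did not match. The bases just past the start were found in a GENCODE transcript of the gene for every start but those of Cry2 and Nr1d1. Each line below holds the 250 bases before a start, 5′ to 3′. Per1 had 2 annotated starts, of which only the first is shown, and which start these cells use was not tested. Capitals mark the E-box CACGTG, its variant CACGTT or the D-box TTATGTAA, on either strand.
Per1, chr11:69098699-69098948, plus strand: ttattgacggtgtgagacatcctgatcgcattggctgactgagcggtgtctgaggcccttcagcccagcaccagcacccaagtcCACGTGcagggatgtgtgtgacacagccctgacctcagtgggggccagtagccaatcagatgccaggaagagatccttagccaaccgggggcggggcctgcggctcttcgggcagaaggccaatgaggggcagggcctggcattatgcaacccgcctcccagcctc
Cry1, chr10:85185055-85185304, minus strand: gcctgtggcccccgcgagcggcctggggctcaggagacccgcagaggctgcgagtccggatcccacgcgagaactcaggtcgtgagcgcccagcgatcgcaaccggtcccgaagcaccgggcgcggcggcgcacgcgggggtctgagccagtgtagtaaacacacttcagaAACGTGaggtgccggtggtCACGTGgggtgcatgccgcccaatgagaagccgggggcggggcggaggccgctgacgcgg
Cry2, chr2:92434070-92434319, minus strand: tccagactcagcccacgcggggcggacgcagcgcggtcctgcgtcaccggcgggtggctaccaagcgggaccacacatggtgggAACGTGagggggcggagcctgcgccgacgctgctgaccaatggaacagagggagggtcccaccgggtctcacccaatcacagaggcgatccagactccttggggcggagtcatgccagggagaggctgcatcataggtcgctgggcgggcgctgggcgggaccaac
Per3, chr4:151044666-151044915, minus strand: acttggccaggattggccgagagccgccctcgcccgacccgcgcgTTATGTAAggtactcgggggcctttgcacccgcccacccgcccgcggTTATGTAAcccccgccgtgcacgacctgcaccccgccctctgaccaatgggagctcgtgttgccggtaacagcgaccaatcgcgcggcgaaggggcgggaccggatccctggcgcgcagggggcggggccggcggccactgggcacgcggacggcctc
Dbp, chr7:45704997-45705246, plus strand: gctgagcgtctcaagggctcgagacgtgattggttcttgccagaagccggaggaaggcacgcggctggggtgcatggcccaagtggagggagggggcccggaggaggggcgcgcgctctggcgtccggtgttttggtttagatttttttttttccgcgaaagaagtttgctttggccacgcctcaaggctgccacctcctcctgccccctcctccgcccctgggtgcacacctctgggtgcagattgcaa

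All 13 start windows, each of 300 bases up to 50 bases past the start, were searched on both strands. The E-box CACGTG was found in 2 of the 13 windows, those of the first Per1 start and of Cry1. It was in 7.15% of all 32851 mouse windows of that length. Its variant CACGTT was in 3 windows, of Cry1, Cry2 and Nr1d1 (4.68% of all windows). The D-box TTATGTAA occurred in the window of Per3 alone among the 13, at 205 and 158 bases before the start, and in 0.938% of all windows. Letters that differ from TTATGTAA, such as the ttatgcaa in the Per1 region above, were not searched for. The RORE core TAGGTCA occurred only in the second Arntl start window, from position 31 counted with the start as 1, within the site gcagaaagTAGGTCAgggacgga, and in 2.61% of all windows. The antioxidant response element TGACNNNGC, the sequence type bound by NRF2, was in 4 windows, of Per1, Cry1, Cry2 and Nr1d2, against 12.4% of all. The shorter cyclic AMP response core TGACG was in 4 windows (20.8% of all), and its letters overlapped those of TGACNNNGC in Cry1. The full site TGACGTCA was in 0 of the 13 windows (1.79% of all). These matches describe letters in short windows only, and many known clock sites lie outside them.

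Libraries held from 25016754 to 34877090 counts. Levels are CPM, counts scaled to library size, with TMM factors over all 12 libraries. As a check of the labels, all 9 fibroblast markers (such as Col1a1, Pdgfra and Dcn) were above 1 CPM in each group. Their summed level ran from 14000 to 15800 CPM in vehicle and 13900 to 16300 in treated cells at 4 h, and from 15900 to 19600 in vehicle and 6750 to 7090 in treated cells at 24 h. The summed level of 7 macrophage and leukocyte markers ran from 92.3 to 101 CPM in vehicle and 65.7 to 86.6 in treated cells at 4 h, and from 326 to 381 in vehicle and 144 to 166 in treated cells at 24 h, when all 7 were above 1 CPM in vehicle and 6 in treated cells. Of the 6 pericyte and smooth muscle markers, the sum was 77.7 to 88.4 CPM in vehicle and 73.6 to 93.8 in treated cells at 4 h, 31.2 to 36.1 in vehicle at 24 h and 10.4 to 13.6 in treated cells at 24 h. Of 8 cardiomyocyte markers 1 was above 1 CPM in each group, and none of 3 Schwann cell markers was. The cardiomyocyte markers summed to 12 to 23 CPM in vehicle and 15.9 to 18.9 in treated cells at 4 h. At 24 h they summed to 16.6 to 19.7 CPM in vehicle and 6.21 to 9.2 in treated cells. Pln was at 0 in treated cells at 4 h, Myh7 in both groups at 24 h and Myh6 in treated cells at 24 h. The 6 endothelial markers summed to 39.6 to 48.5 CPM in the other groups and 34.1 to 37 in treated cells at 24 h, and the 4 epicardial markers to 32.8 to 50.6 CPM at 4 h and 16.2 to 20.4 at 24 h. The part of these markers in the clock results was not tested, and in such bulk RNA fewer cells of a type and less RNA per cell cannot be told apart.

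Nr1d1 had the highest clock gene level per length in all 4 groups. In vehicle cells at 4 h it stood at 128 ± 16.6 CPM per kilobase of gene model (SD, n = 3), followed by its paralog Nr1d2 at 24.3 ± 3.53. Clock (11.3 ± 1.99) and Per1 (10.7 ± 0.664) came next and overlapped, then Cry1 (7.48 ± 0.189). The levels per kilobase of Cry2 (4.26 ± 0.227), Arntl (3.92 ± 0.145), Dbp (3.13 ± 1.04) and Per2 (2.08 ± 0.299) followed, each pair of neighbours in this order overlapping, and Per3 was below them all at 1.02 ± 0.0962. In treated cells at 24 h the order differed: Nr1d1 (30.6 ± 0.778 CPM per kilobase) and Nr1d2 (25.5 ± 0.967) were followed by Per1 (20.7 ± 1.06), Cry1 (13.9 ± 0.582), Cry2 (12.8 ± 0.465) and Clock (11.3 ± 0.403), with no overlap between neighbours. Arntl (4.41 ± 0.0798) and Per2 (2.27 ± 0.263) came next. Dbp (0.673 ± 0.176) and Per3 (0.568 ± 0.0682) stood at the bottom and overlapped.

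**Figure D1:**
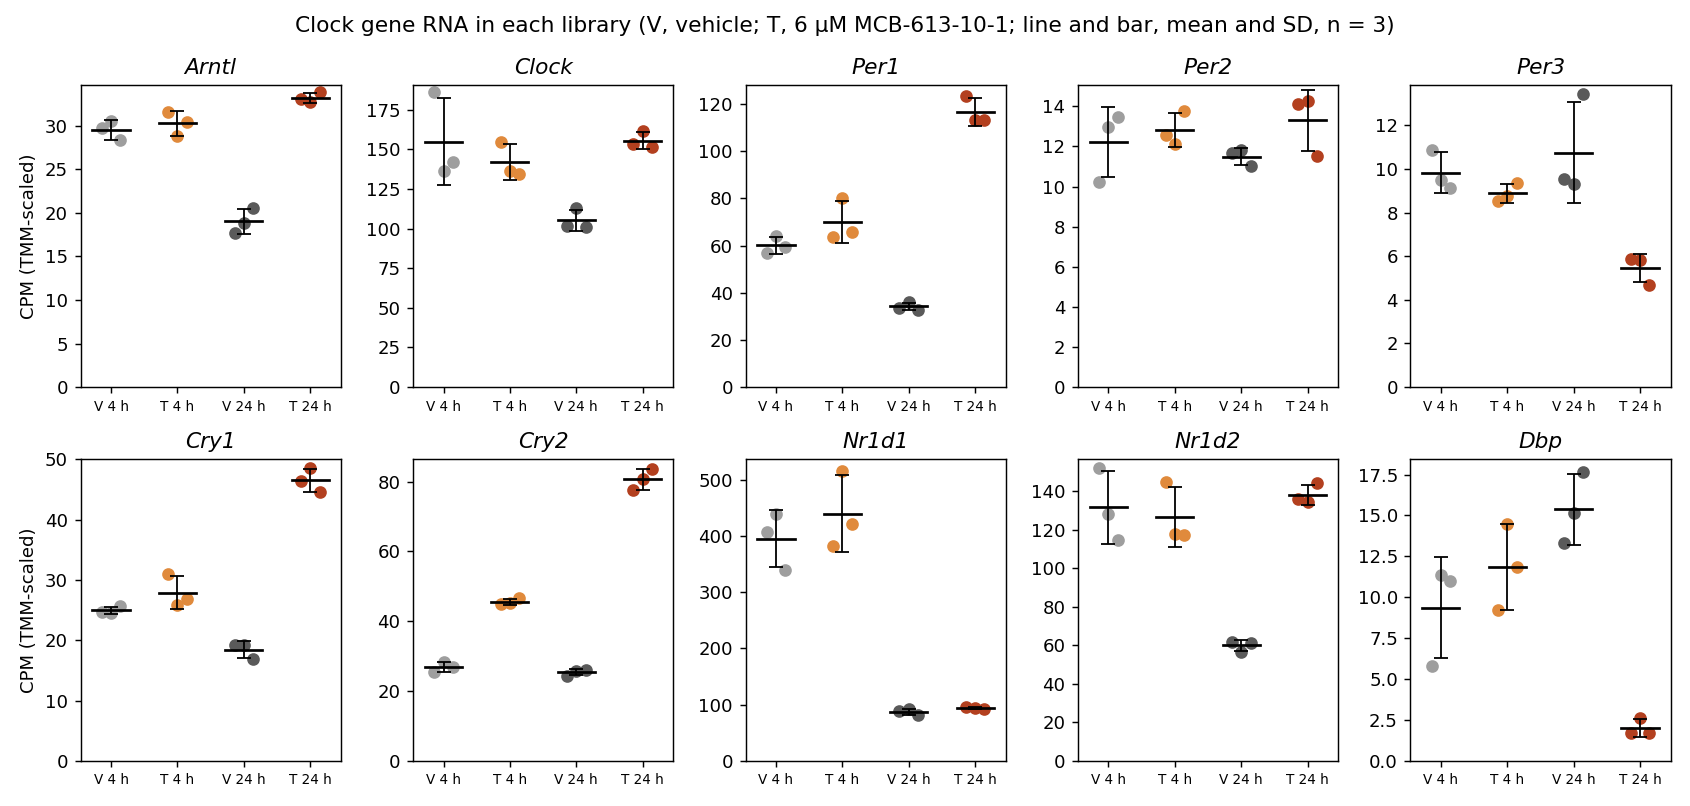
TMM-scaled CPM (y axis, from 0) of the 10 clock genes in each of the 12 libraries, by group (x axis: vehicle, V, and 6 µM MCB-613-10-1, T, at 4 h and 24 h). Points are libraries, and the line and bar are the mean and SD of 3. Compared within each gene, the libraries of treated cells at 24 h lie above those of every other group for Arntl, Per1, Cry1 and Cry2. They lie below every other group for Dbp and Per3, while Nr1d1 separates by time.

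After 4 h of MCB-613-10-1, Cry2 was the only clock gene that passed the test. Cry2, a cryptochrome that represses ARNTL and CLOCK, read 25.6, 28.4 and 26.8 CPM in the vehicle libraries and 45.0, 45.2 and 46.6 CPM in the treated ones. All treated libraries lay above all vehicle libraries, by 0.76 on the log2 scale (SE 0.09, edgeR adjusted p = 0.000421), or 1.69-fold. Its paralog Cry1 also had separate groups, at 24.7, 24.5 and 25.7 against 31.0, 25.9 and 26.9 CPM, but the difference did not pass (0.16, SE 0.10, edgeR adjusted p = 0.373). Over all 15336 genes tested at 4 h, 7.16% were called (3.45% higher, 3.71% lower), and 1 of 10 members (10%) is near that share. The count behind it, 1098 genes, ran from 443 (without treated replicate 3) to 1760 (without vehicle replicate 1) when 1 library was left out, and was 672, 634 and 476 without vehicle replicate 3, treated replicate 1 or treated replicate 2. Blocking on the replicate number gave 1953 genes, and fitting all 12 libraries together gave 2198. Under each of these settings 1 member was called. The median log2 fold change was 0.11 over the 10 members and -0.01 over all genes.

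The other 8 members differed at 4 h by less than the test could tell from the spread between libraries. Dbp had the largest value among them, 0.34, with the largest SE, 0.26. Its vehicle libraries read 5.79, 11.3 and 11.0 CPM and its treated libraries 9.20, 14.5 and 11.9 CPM, so the groups overlapped. Without vehicle replicate 1 the value of Dbp was 0.09, below those of Per1 and Nr1d1 (both 0.18). Per1, the period gene that reacts fastest to serum and hormones, read 56.8, 64.1 and 59.2 CPM in vehicle and 63.8, 80.3 and 65.6 CPM in treated libraries (log2 fold change 0.22, SE 0.10, edgeR adjusted p = 0.233). The remaining members ran from -0.15 (Per3) to 0.15 (Nr1d1). Vehicle replicate 1 was the highest of all 6 libraries of 4 h for Clock (186 CPM against 134 to 155 in the other 5) and the lowest for Dbp (5.79 CPM). Without it the values of Clock, Per2 and Nr1d2 changed sign, to 0.03, -0.04 and 0.06, none of them called (edgeR adjusted p = 0.852, 0.861 and 0.73). Arntl stood at 0.04, and at -0.02 when scaled by library totals. Treated replicate 1 was likewise the highest treated library of 4 h for Clock (155 CPM) and the lowest for Dbp (9.20 CPM). With a block on the replicate number Clock stood at -0.114 (SE 0.0764) and Dbp at 0.37 (SE 0.135), neither called.

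After 24 h 4 of the 7 repressor genes among the members, Per1, Cry1, Cry2 and Nr1d2, were higher in treated cells, Per3 was lower, and the output gene Dbp was far lower. Per1 rose 3.40-fold, Cry2 3.17-fold, Cry1 2.52-fold and Nr1d2 2.29-fold, the activator genes Arntl and Clock rose 1.74-fold and 1.47-fold, Dbp fell 7.53-fold and Per3 fell 1.97-fold. In all, 6 members rose, 2 fell and 2, Per2 and Nr1d1, were not called. At this time 74.7% of the 15575 genes tested were called, 36.7% higher and 38% lower, so 8 of 10 members called (80%) is near the share of all genes. The median absolute log2 change was 1.09 over the members and 0.65 over all genes, and the median signed change 0.68 against -0.02. With library totals in place of TMM factors the median shift over all genes was -0.19 and 39% of called genes were higher instead of 49.1%. With library totals the same 6 members were called higher and the same 2 lower, and Nr1d1 changed sign.

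Dbp encodes an activator of the PAR bZIP family. It lies on chromosome 7, from 45354512 to 45359627 of GRCm39 (ENSMUSG00000059824). It read 13.3, 15.1 and 17.7 CPM in the vehicle libraries of 24 h and 1.69, 2.62 and 1.73 CPM in the treated ones, which held 41, 79 and 39 raw counts. The groups were far apart, at -2.91 on the log2 scale (SE 0.17, edgeR adjusted p = 1.98e-11), the 307th lowest of the 15575 genes tested. Its gene model overlaps that of Sphk2, a sphingosine kinase gene on the opposite strand, by 737 bases. Sphk2 rose by 1.84 (edgeR adjusted p = 1.18e-15), and the labels do not say whether counting used strand, so reads of the shared stretch cannot be told apart.

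Whether the letters TTATGTAA in the start region of Per3 play a part in its level was not tested. Per3 was also lower in treated cells at 24 h. It read 9.53, 9.30 and 13.4 CPM in vehicle and 5.86, 5.81 and 4.70 CPM in treated libraries (log2 fold change -0.98, SE 0.16, edgeR adjusted p = 1.85e-05). The highest vehicle library, replicate 3, stood apart from the other vehicle libraries, and all treated libraries were below all vehicle libraries. Its gene model lies within that of Camta1 on the same strand. Across the 12 libraries the log2 CPM of Per3 and Dbp had r = 0.87, a description over libraries that share the same groups.

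Per1 and the cryptochromes rose most among the members. Per1 (ENSMUSG00000020893, GRCm39 chromosome 11, 68986043 to 69000786) read 33.7, 36.0 and 32.8 CPM in vehicle and 123.5, 113 and 113 CPM in treated libraries of 24 h. The log2 fold change was 1.77 (SE 0.06, edgeR adjusted p = 1.26e-15), the 804th highest of 15575. Per2, its paralog with a like role in repression, read 11.7, 11.8 and 11.0 CPM against 14.1, 14.3 and 11.5 CPM. The groups of Per2 overlapped through treated replicate 3 (log2 fold change 0.21, SE 0.11, edgeR adjusted p = 0.0894), and without that library Per2 passed at 0.30 (adjusted p = 0.0161). The 3 period genes thus stood at 1.77, 0.21 and -0.98 on the log2 scale in the same libraries.

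Cry2 (ENSMUSG00000068742, chromosome 2, 92233991 to 92264388) read 24.4, 25.7 and 25.9 CPM in vehicle and 77.7, 80.6 and 83.6 CPM in treated libraries of 24 h (log2 fold change 1.66, SE 0.06, edgeR adjusted p = 4.77e-15). Cry1 (ENSMUSG00000020038, chromosome 10, 84967564 to 85020928) read 19.2, 19.2 and 16.9 against 46.4, 48.5 and 44.7 CPM (1.33, SE 0.07, adjusted p = 2.73e-12). Both cryptochrome genes thus separated fully by treatment. The gene model of Cry2 overlaps that of D930015M05Rik, a long noncoding RNA gene on the opposite strand with 17 to 40 counts in all per group of 3 libraries.

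The activator genes rose less. Arntl read 17.7, 18.8 and 20.6 CPM in vehicle and 33.0, 32.7 and 33.9 CPM in treated libraries (log2 fold change 0.80, SE 0.08, edgeR adjusted p = 1.52e-08). Clock, which encodes its partner, read 102, 113 and 101 against 153.5, 162 and 151 CPM (0.56, SE 0.05, adjusted p = 6.89e-09). In both genes all treated libraries were above all vehicle libraries.

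Of the paralogs that encode the REV-ERB repressors, Nr1d2 rose at 24 h and Nr1d1 was not called. Nr1d2 (ENSMUSG00000021775, chromosome 14, 4230569 to 4265642) read 61.6, 56.7 and 61.5 CPM in vehicle and 136, 134.5 and 144 CPM in treated libraries (log2 fold change 1.20, SE 0.05, edgeR adjusted p = 8.69e-14). Nr1d1 (ENSMUSG00000020889, chromosome 11, 98658758 to 98666159) read 88.4, 92.3 and 81.7 against 96.1, 94.9 and 91.5 CPM, and these groups overlapped. Its log2 fold change was 0.10 (SE 0.05, edgeR adjusted p = 0.0889), and -0.09 with library totals. It passed at 0.13 without treated replicate 3 (adjusted p = 0.0493) and without vehicle replicate 2 (0.0449). The difference between the paralogs was not itself tested. Nr1d1 overlaps Thra, the thyroid hormone receptor alpha gene on the opposite strand, by 1075 bases, and Thra fell by 0.97 on the log2 scale (edgeR adjusted p = 1.64e-07).

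**Figure D2:**
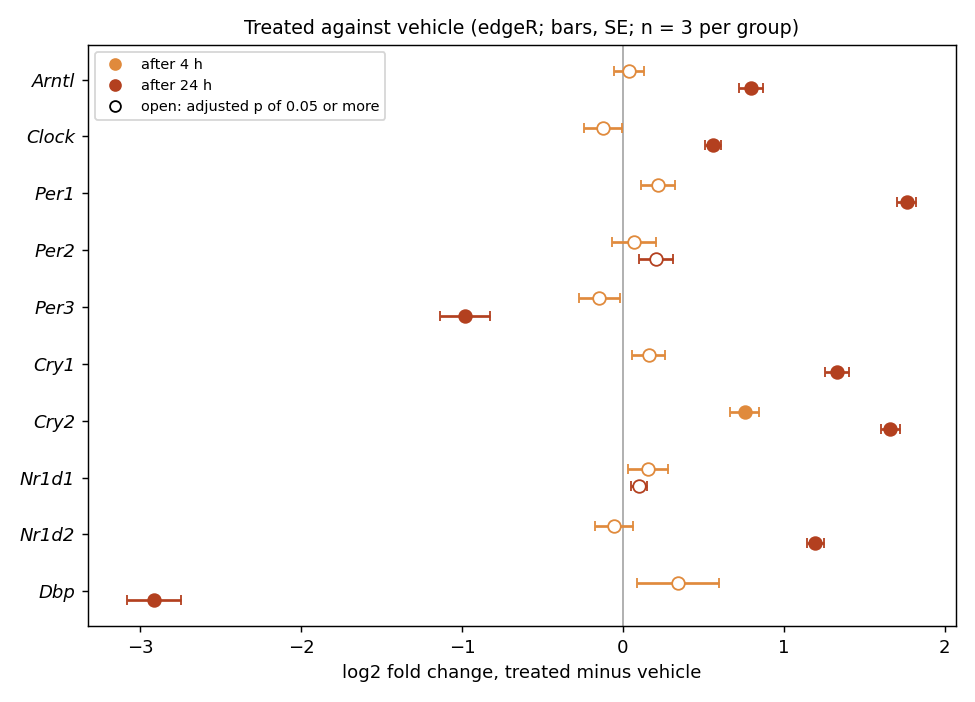
Log2 fold change of treated against vehicle (x axis) for each clock gene (y axis) after 4 h and 24 h, with SE bars; filled points had an adjusted p under 0.05. After 4 h Cry2 alone was called, and after 24 h values ran from -2.91 for Dbp to 1.77 for Per1.

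Tested directly on all 12 libraries, the response at 24 h differed from that at 4 h for 8 of the 10 members, 6 with a higher value at 24 h and 2 with a lower one. Over all 16341 genes of this test 53.8% were called (26.7% higher, 27.1% lower). The difference was largest for Dbp, -3.25 on the log2 scale (SE 0.37, edgeR adjusted p = 7.53e-06), and next for Per1, 1.55 (SE 0.12, adjusted p = 7.3e-09). Cry2, already higher at 4 h, differed by 0.91 (SE 0.10). Per2 (0.14, SE 0.17) and Nr1d1 (-0.05, SE 0.15) did not pass (edgeR adjusted p = 0.522 and 0.805). The responses came from separate harvests, whose group names differ by an unexplained prefix. Length of exposure and anything else that set the harvests apart cannot be told apart.

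The levels also changed between the harvests without the compound. In vehicle cells 6 members were lower at 24 h than at 4 h and 1, Dbp, was higher, where 54.3% of 16341 genes were called (27.4% higher, 27% lower). Nr1d1 fell most, from 408, 438.5 and 339 CPM to 88.4, 92.3 and 81.7 CPM, with no overlap (log2 fold change -2.18, SE 0.11, edgeR adjusted p = 8.59e-11), the 298th lowest of 16341. Nr1d2 followed at -1.14 (SE 0.10), then Per1 at -0.81, Arntl at -0.63, Clock at -0.56 and Cry1 at -0.44, each called. Dbp rose by 0.72 (SE 0.24, edgeR adjusted p = 0.0213), and this call ended without vehicle replicate 3 of 24 h (0.61, adjusted p = 0.0746). It is a borderline call in this fit, and stayed near the threshold without the count filter (edgeR adjusted p = 0.0482). The call was stronger with DESeq2 (adjusted p = 0.00434) and with a replicate block (0.761, SE 0.148, edgeR adjusted p = 0.000321). False calls were slightly above the nominal level in simulated data for this comparison, in which far fewer genes changed than were called here. Per2, Per3 and Cry2 were not called (-0.08, 0.13 and -0.09). The 24 h and 4 h libraries were deposited in separate tables whose group names differ by an unexplained prefix, so time in culture and anything else that set the harvests apart cannot be told apart.

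In treated cells over the same span Nr1d1 fell as well, from 382, 516 and 421 CPM to 96.1, 94.9 and 91.5 CPM (log2 fold change -2.22, SE 0.11, edgeR adjusted p = 1.85e-11). Dbp fell by 2.53 (SE 0.28) and Per3 by 0.70 (SE 0.15), while Cry2 rose by 0.82, Per1 by 0.74 and Cry1 by 0.74. Arntl, Clock and Nr1d2, which fell in vehicle cells, stood at 0.13, 0.13 and 0.12 and were not called, and neither was Per2 (0.06). Without treated replicate 1 of 4 h Nr1d2 passed at 0.23 (edgeR adjusted p = 0.0495). With all libraries 3 members were higher and 3 lower at 24 h, against 61.9% of all genes called (30% higher, 31.9% lower). These time comparisons use the same libraries as the responses above, so they show the same values from another side and are no separate support.

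**Figure D3:**
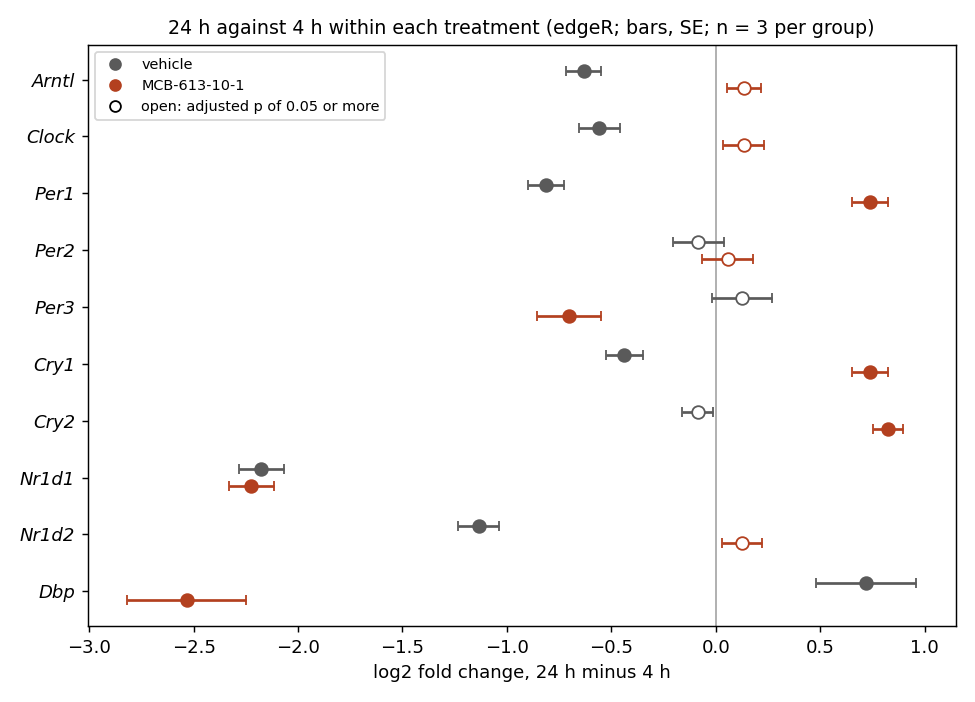
Log2 fold change of 24 h against 4 h (x axis) for each clock gene (y axis) in vehicle and in treated cells, with SE bars; filled points had an adjusted p under 0.05. Nr1d1 stood at -2.18 in vehicle and -2.22 in treated cells, whereas Per1 and Cry1 were called lower in vehicle and higher in treated cells and Dbp higher in vehicle and lower in treated cells.

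Other factors of the clock loops were measured from a list, of which 10 genes were tested. At 4 h 2 rose and 0 fell: Ciart, a repressor of ARNTL and CLOCK, by 1.08 (SE 0.11, edgeR adjusted p = 0.000187), and Bhlhe41, a repressor at E-boxes, by 0.63 (SE 0.09). At 24 h 6 rose and 1 fell, with a list median of 0.60 against -0.02 over all genes. The 6 include Rorb (2.51), at a mean FPKM of only 0.0956. Npas2 and Hlf, which also count in the list medians, had a mean FPKM of at most 0.475 and 0.199. The 7 of 10 called at 24 h are near the 74.7% of all genes called at that time, and the 2 of 10 at 4 h stand beside 7.16%. Ciart stood at 2.15, Rora, which activates at RORE sequences, at 1.65, Nfil3, a repressor at D-boxes, at 1.04, and Tef, a PAR bZIP activator related to Dbp, at 0.65. Arntl2, a paralog of Arntl, fell by 0.94. Dbp, Tef and Nfil3, which act on the same D-box sequences, thus stood at -2.91, 0.65 and 1.04 at 24 h. Bhlhe40, a paralog of Bhlhe41 picked out after its values were seen, was not called at either time (-0.12 and -0.07). It fell between 4 h and 24 h by 1.68 in vehicle and 1.63 in treated cells.

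Of 20 kinases, ubiquitin ligases and other modifiers of clock proteins, 1 fell and 0 rose at 4 h, and 14 rose and 3 fell at 24 h (median 0.47, against -0.02 over all genes). Beside these counts, 7.16% of all genes were called at 4 h and 74.7% at 24 h, 36.7% higher and 38% lower. The gene that fell at 4 h was Timeless, which also serves DNA replication (-0.56), and at 24 h it stood at -3.48 (SE 0.12). Sirt1, a deacetylase, rose by 1.48 at 24 h, the casein kinase 2 subunit gene Csnk2a2 by 0.94, and the ubiquitin ligase genes Fbxw11 and Fbxw7 by 0.83 and 0.76. Csnk1d and Csnk1e, the kinases that mark PER proteins for degradation, rose by 0.59 and 0.61 and were picked out for their role after their values were seen.

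Genes that are rhythmic in many mouse tissues did not share a direction. Of 13 tested, 1 rose and 1 fell at 4 h (Cdkn1a, 0.44, and Klf10, -0.59), and 6 rose and 7 fell at 24 h (median -0.32, against -0.02 over all genes), where 7.16% and 74.7% of all genes were called. The largest changes at 24 h were those of Lonrf3 (1.54), Tspan4 (-1.48), Wee1, a mitotic inhibitor kinase (-1.34), Klf10 (-1.14) and Dtx4 (-1.004). Among 16 genes of glucocorticoid, cyclic AMP and serum signaling, Per1 included, 2 rose and 4 fell at 4 h, and 9 rose and 5 fell at 24 h (median 0.36), beside the same shares of 7.16% and 74.7% over all genes. At 4 h Sik1, Sgk1, the glucocorticoid receptor gene Nr3c1 and Nr4a1 fell by 0.56, 0.53, 0.41 and 0.40, and Crtc3, a CREB coactivator, rose by 0.38. At 24 h Crem, a factor of cyclic AMP response, rose by 1.35, Hsf1, the heat shock factor, by 0.84 and Crtc2 by 0.76. Fkbp5, a glucocorticoid target, fell by 1.20, and Per1 rose by 1.77. On the same list Sgk1 was not called at 24 h (0.035), and Zbtb16 rose by 1.15 at a mean FPKM of only 0.0887.

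**Figure D4:**
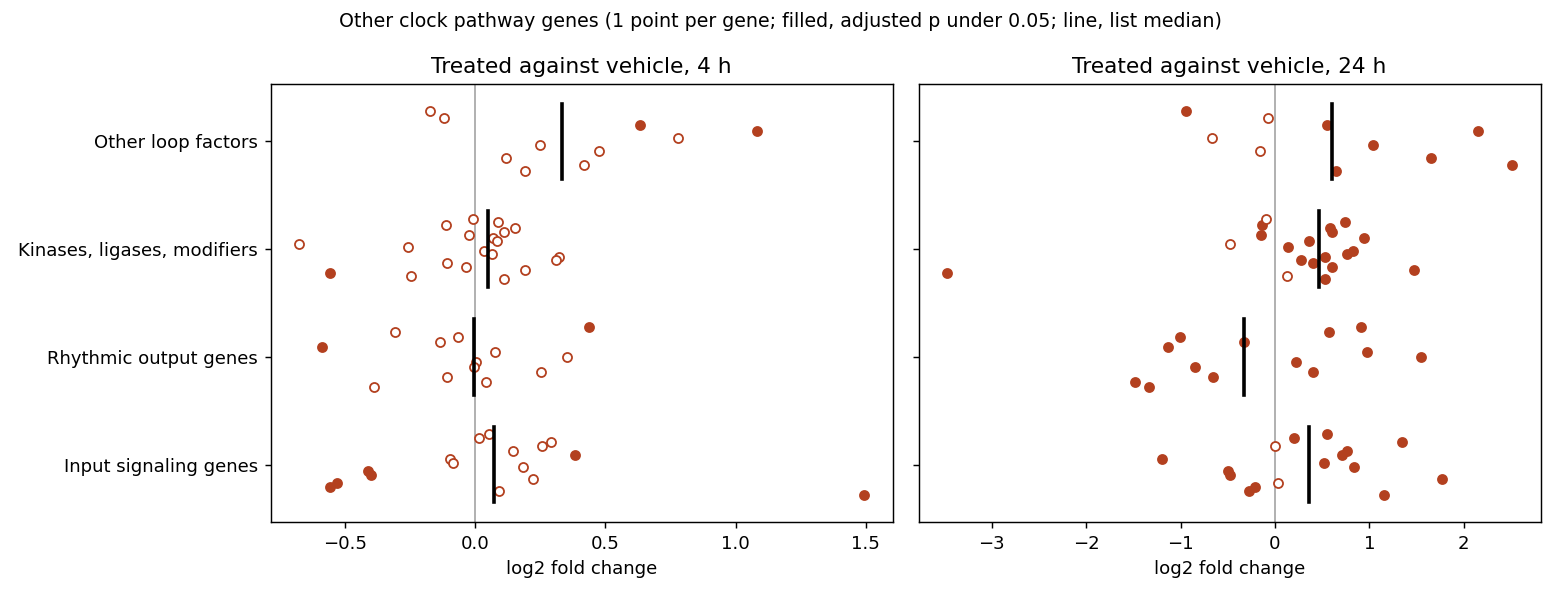
Log2 fold change of treated against vehicle (x axis) at 4 h (left) and 24 h (right) for the 4 lists of other clock pathway genes (y axis); each point is 1 tested gene, filled where the adjusted p was under 0.05, and lines are list medians. The loop factors, of which Npas2, Rorb and Hlf had a mean FPKM under 1 in every group, have medians of 0.33 and 0.60. The output genes have medians of -0.004 and -0.32.

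Likeness of pattern was taken as Pearson's r of log2 CPM over all 12 libraries, among 10991 protein-coding genes, and is a description over libraries that share the same groups. The genes closest to Arntl were Rnf149, Sirt1 and Gem (r = 0.98 each). Those closest to Dbp were Hnrnpl (0.99), Ptms (0.99) and Txndc5 (0.99). Per2 had weaker matches, Mras (0.88), Sync (0.87) and Clasrp (0.85). Among the members themselves r was highest for Arntl with Nr1d2 (0.97) and for Per1 with Cry1 (0.95), and lowest for Per3 with Cry1 and for Dbp with Cry1 (-0.91 each).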

How the data were processed

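Raw read counts per gene, FPKM values, and the authors' own p-value, adjusted p-value and log2 fold change were deposited in 1 table per time, per the file headers. Per the submitters' processing notes, HISAT2 2.0.5, featureCounts 1.5.0-p3, DESeq2 and the build GRCm39 were used. Counts were tested with edgeR 4.0.16 (R 4.3.3) by its robust quasi-likelihood test with default low-count filter and TMM scaling. Each response was fitted on the 6 libraries of its time, and time comparisons and the difference of responses on all 12, without a replicate block. Benjamini-Hochberg adjustment covered every tested gene, with calls made at an adjusted p under 0.05. SE was derived from the test statistic. Levels are CPM scaled over 12 libraries, so ratios of levels differ slightly from fitted folds. Alternatives were library totals, DESeq2 1.42.0, no filter, a replicate block, limma-trend (3.58.1) on log2(FPKM + 0.1), other sets of libraries, and leaving out each library. Fits were tested on simulated data, where false calls were somewhat more frequent than the nominal level in each comparison but the difference of responses. Far fewer genes were changed there than were called here, so that rate need not hold for these data. Calls near the threshold are less certain in any case. The deposited fold changes and adjusted p-values were set aside. All members were named; from each list, up to 5 called genes per time with mean FPKM of at least 1 were named by size of change, and 3 genes most like Arntl, Per2 and Dbp. Members and lists were chosen with earlier results of these data known. Whether same-numbered libraries deviate together was checked (closing section).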

Additional observations from a re-analysis of the deposited data

Results flagged for a closer look

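For 8 clock genes the response to MCB-613-10-1 differed between 24 h and 4 h in the interaction test of edgeR, with adjusted p from 7.3e-09 (Per1) to 0.0027 (Per3). In the same test 53.8% of all 16341 genes were called, 26.7% higher and 27.1% lower. As response at 24 h minus response at 4 h, on the log2 scale, the values were 1.55 for Per1, 1.26 for Nr1d2, 1.18 for Cry1, 0.91 for Cry2, 0.77 for Arntl and 0.69 for Clock. They were -0.83 for Per3 and -3.25 for Dbp. All 8 were called with each of the 12 libraries left out in turn, where the count of called members was 8 each time. Groups of 3 libraries are too small for a check of single outlying libraries. Length of exposure and other differences between the harvests cannot be told apart in these values.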

How the results depend on the processing

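The count of called clock genes did not move by over 1.5 times under any alternative run: without 1 library it was 1 to 1 at 4 h, 8 to 10 at 24 h, 8 to 8 for the difference of responses, 6 to 7 for vehicle over time and 6 to 7 for treated cells over time. Of 620 alternative values of single members, 605 kept direction and side of the threshold, 4 passed where they had not, 1 no longer passed and 10 changed sign. None of the 10 belonged to a called value. With library totals these were Arntl at 4 h (-0.02), Nr1d1 at 24 h (-0.092), Per2 in the difference (-0.003) and Per2 in treated cells over time (-0.057). Without 1 library, Clock at 4 h ran from -0.21 to 0.03, Per2 at 4 h from -0.043 to 0.147, Nr1d2 at 4 h from -0.161 to 0.063, Nr1d1 in the difference from -0.143 to 0.078 and Per3 in vehicle over time from -0.06 to 0.221. Over all genes, the 4 h count of 1098 was 1953 with the replicate number as a block, 2198 with all 12 libraries and 443 to 1760 without 1 library. The other counts without 1 library were 11235 to 11595 (24 h), 8114 to 9120 (difference), 7761 to 8756 (vehicle) and 9366 to 9677 (treated). With library totals 34.5% of called genes at 4 h were higher, against 48.2%. The labels state no pairing, so the replicate numbers were not taken as pairs. Same-numbered libraries correlated in their deviations at 0.06 to 0.09 at 4 h and -0.03 to 0.02 at 24 h. At 4 h each library correlated best with its own number, and whether those libraries were paired is not known. The replicate block left the count of called members at 1, 8, 8, 7 and 6 in the comparisons above. The 39 to 79 counts of Dbp in treated cells at 24 h limit the precision of its level.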
